A study of Solanum lycopersicum with 12 samples.

Results

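The onset of ripening was followed in the pericarp, the fleshy wall of the tomato fruit, of a wild type (WT) as it passed from mature green, when the fruit is full-sized and green, to breaker, when the first colour shows. The comparison set the 3 WT breaker libraries, labelled 38, against the 3 WT mature green libraries, labelled 35, and took in every gene with enough counts to be tested, which was 19664 of 35882 features. These are 6 of the 12 libraries of the series. The remaining 6 come from pericarp of a mutant called cr at the same stages, whose mutated gene the labels do not name. These cr libraries entered the choice of genes to test, the scaling, the shared estimate of spread and the comparison given last. With the WT libraries alone 18982 genes were tested. RNA was extracted with Trizol and sequenced on an Illumina NovaSeq. The cultivar and the unit of the numbers 35 and 38 are not given. Nor is it stated whether libraries of 1 group stem from different plants or fruits, so the p-values measure the spread among these libraries, which may be technical.

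Tomato is a climacteric fruit. At ripening it begins to make ethylene in an autocatalytic way, and ethylene is sensed by receptors that hold the pathway off until they bind it. Under the combined control of ethylene and of transcription factors of the MADS-box, NAC and SBP families, chloroplasts turn into chromoplasts that store lycopene, pectin and hemicellulose in the wall are taken apart, aroma compounds form, and bitter steroidal glycoalkaloids of the green fruit decline. These statements are background and not results of the data below.

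The 6 WT libraries held between 17703054 and 19347924 counts in genes. Log2 levels correlated with r between 0.9844 and 0.9872 among the mature green libraries and between 0.9857 and 0.9907 among the breaker libraries. The summed level of 4 genes of ripening pericarp (2A11, PG2A, PSY1 and EXP1, described below) was 5753, 5142 and 6140 CPM at mature green. At breaker it was 28559, 29873 and 32597 CPM. All 4 were called higher in this same contrast, so the sum follows the stage and cannot check the tissue label. CPM are counts scaled to a common library size with trimmed-mean-of-M-values (TMM) factors, and 3 values given together are replicates 1, 2 and 3 in that order. They are shares of the RNA of a library, so that fewer cells of a type and less RNA per cell cannot be told apart. Mature green replicate 3 was the nearest of its group to the breaker libraries, in that it held the highest mature green value for 2275 of 4600 genes that rose, against 1527 for replicate 1 and 798 for replicate 2.

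A large share of the measured transcriptome moved between the stages: 9498 genes, or 48.3% of those tested, differed at an adjusted p under 0.05 in the quasi-likelihood test of edgeR, Benjamini-Hochberg adjusted, which is the rule for every call below. Of these, 4600 (23.4% of the tested) rose and 4898 (24.9%) fell. Counts of risers and fallers in the classes below are to be read against these shares. In 56.1% of all tested genes the 2 groups did not overlap. Sizes given after "rose by" or "fell by" are log2 fold changes with their standard error (SE). The falls were the larger changes. The median log2 fold change was 0.64 over the genes that rose and -1.11 over those that fell, and a change of at least 1 was reached by 1339 risers (6.81% of the tested) and 2665 fallers (13.6%). Steeper changes, of at least 3, were reached by 218 risers and 559 fallers. The call was kept by 7054 genes whichever WT library was left out. The direction of small changes depends on the scaling: with upper-quartile factors the median over all genes moved from 0.004 to -0.10 and the calls became 3501 higher and 5844 lower, and with no factors it moved to -0.19 and they became 2846 higher and 6784 lower.

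In terms of the RNA pool the balance ran the other way. Genes that rose made up 26.5, 25.2 and 27.1% of all counts at mature green and 47.9, 48.3 and 47.4% at breaker, while genes that fell went from 31, 32.3 and 31.1% to 15.2, 14.9 and 14.8%. The 218 genes with a rise of at least 3 went from 0.567, 0.302 and 0.525% of the counts to 6.56, 6.5 and 6.42%, and the 559 genes with a fall of that size from 1.41, 1.56 and 1.29% to 0.0838, 0.0823 and 0.0985%. The genes were chosen by this contrast, so these shares are a description.

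The most abundant messenger RNA of both stages, compared between genes by the authors' FPKM (fragments scaled by gene length and library depth), was that of 2A11 (Solyc07g049135), a small protein known for its abundance in fruit, at 7241 ± 315 FPKM (SD, n = 3) at mature green and 17337 ± 2183 at breaker. The other abundant genes of the green fruit were TCTP (Solyc01g099770), a translationally controlled protein, with 5746 ± 848 FPKM, the Lea5-type late embryogenesis protein Solyc09g075210 with 5649 ± 1445 FPKM, and ASR1 (Solyc04g071610), an abscisic acid, stress and ripening protein, with 4957 ± 832 FPKM. The peroxisomal photorespiratory enzyme glycolate oxidase (Solyc10g007600) and the thiamine-forming thiazole synthase (Solyc07g064160) were also among the 10 highest. Solyc10g007600 measured 3124, 4605 and 5332 CPM at mature green and 646, 641 and 852 CPM at breaker, with every breaker library below every mature green library, and fell by 2.61 ± 0.21 SE (adjusted p = 9.1e-07). Solyc09g075210 measured 3677, 5272 and 6252 CPM at mature green and 876, 815 and 653 CPM at breaker and fell by 2.70 ± 0.25 SE (adjusted p = 2.22e-06), again without overlap. At breaker the leading places were taken by genes of ripening: the ethylene-induced dioxygenase E8 with 6317 ± 782 FPKM, phytoene synthase PSY1 with 5051 ± 163, polygalacturonase PG2A with 4702 ± 757, vacuolar invertase TIV1 with 4279 ± 794, the E6-like protein Solyc02g077710 with 4099 ± 226 and the glycosyltransferase UGT73C4 with 3764 ± 365 FPKM.

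**Figure D1:**
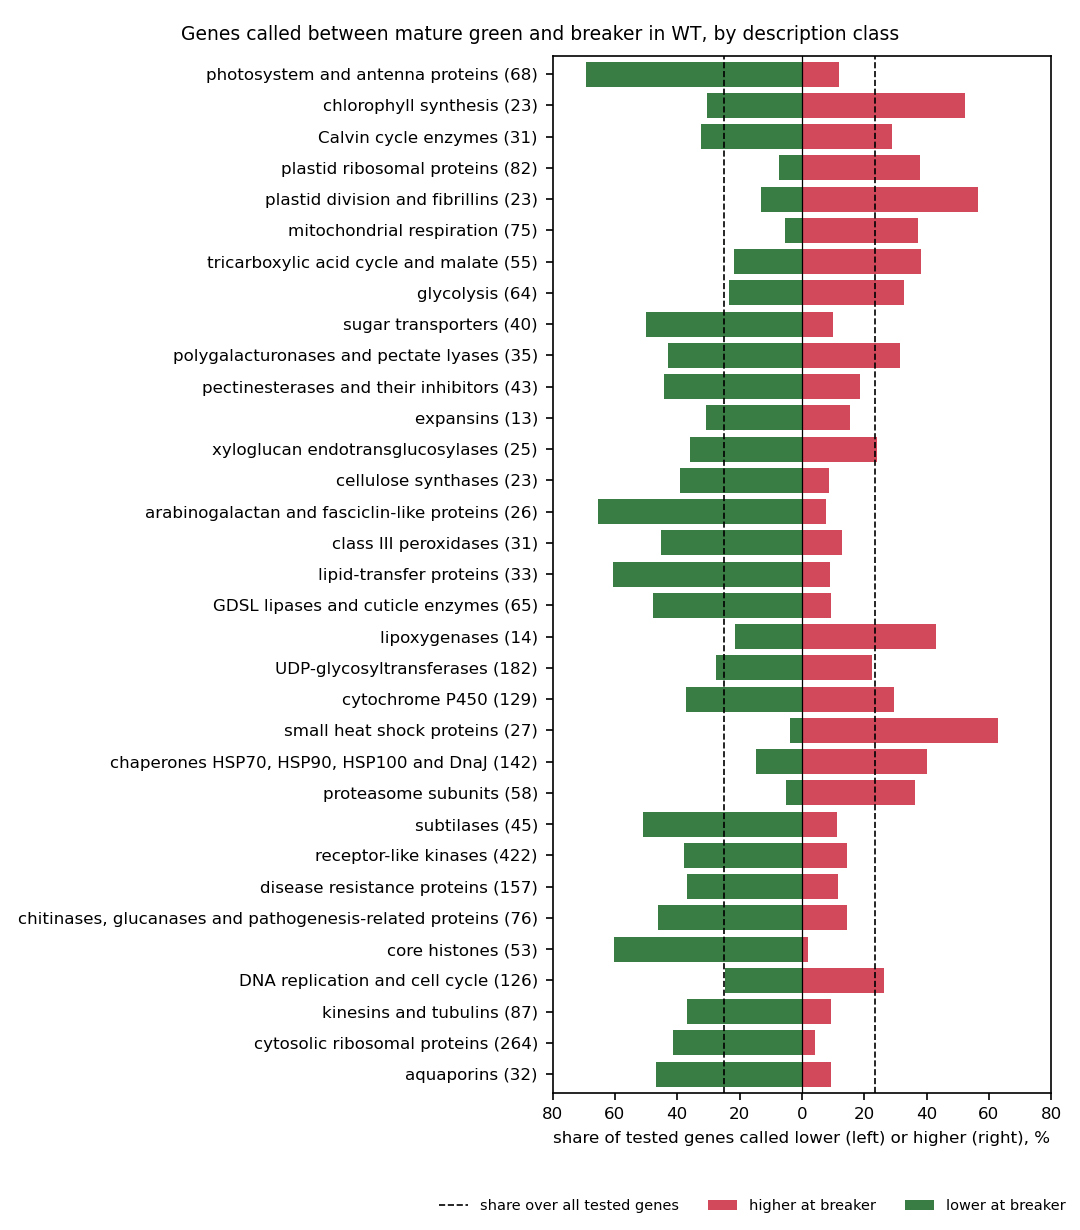
Share of tested genes called lower (green, to the left) or higher (red, to the right) at WT breaker than at WT mature green in 33 classes made from the wording of the gene descriptions, with the number tested in brackets; dashed lines mark 24.9% lower and 23.4% higher over all tested genes. Small heat shock proteins and the class of plastid division and fibrillins reach furthest to the right, and photosystem proteins, arabinogalactan proteins, lipid-transfer proteins and core histones furthest to the left.

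Genes of both steps of ethylene synthesis rose, and so did most of the receptors. Of 9 genes listed for synthesis 8 were tested, 5 rose and 1 fell. Of 15 for receptors and signalling all were tested, 8 rose and 2 fell (median log2 fold change 0.66). The counts for receptors and signalling became 8 and 4 with upper-quartile and 8 and 5 with no factors. The first step is ACC synthase. ACS2 (Solyc01g095080) measured 26.1, 1.47 and 3.49 CPM at mature green and 315, 422 and 310 CPM at breaker, and ACS4 (Solyc05g050010) measured 14.1, 8.93 and 33.7 CPM at mature green and 151, 131 and 171 CPM at breaker. In both genes every breaker library stood above every mature green library, but the mature green level rested on 1 library in each: the log2 fold change of ACS2 was 5.06 ± 0.76 (SE) with all libraries and 7.14 without mature green replicate 1, that of ACS4 3.0 ± 0.42 and 3.71 without mature green replicate 3. ACS1A (Solyc08g081550) rose less, from 44.9, 20.2 and 39.8 to 82.9, 71.2 and 94.9 CPM (log2 fold change 1.25 ± 0.32 SE, adjusted p = 0.00558).

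The second step is ACC oxidase. ACO1 (Solyc07g049530) measured 394, 281 and 403 CPM at mature green and 1002, 790 and 569 CPM at breaker. It rose (log2 fold change 1.13 ± 0.35 SE, adjusted p = 0.016), a call lost without mature green replicate 2 (adjusted p = 0.0679) or breaker replicate 1 (adjusted p = 0.0665). ACO3 (Solyc07g049550) rose from 3.71, 6.1 and 1.96 to 23.7, 27.9 and 9.57 CPM (log2 fold change 2.37 ± 0.56 SE, adjusted p = 0.00356). ACO1 and ACO3 lie close together, and features overlapping each of them on the other strand collected 2135 counts in the 12 libraries. Whether the counting used strand is not given, so the values are uncertain to that extent, here and wherever such counts are stated below. ACO4 (Solyc02g081190) and ACO5 (Solyc07g026650) were not called, at log2 fold changes of -0.15 (adjusted p = 0.647) and 1.17 (adjusted p = 0.0779), and their mature green and breaker libraries overlapped.

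**Figure D2:**
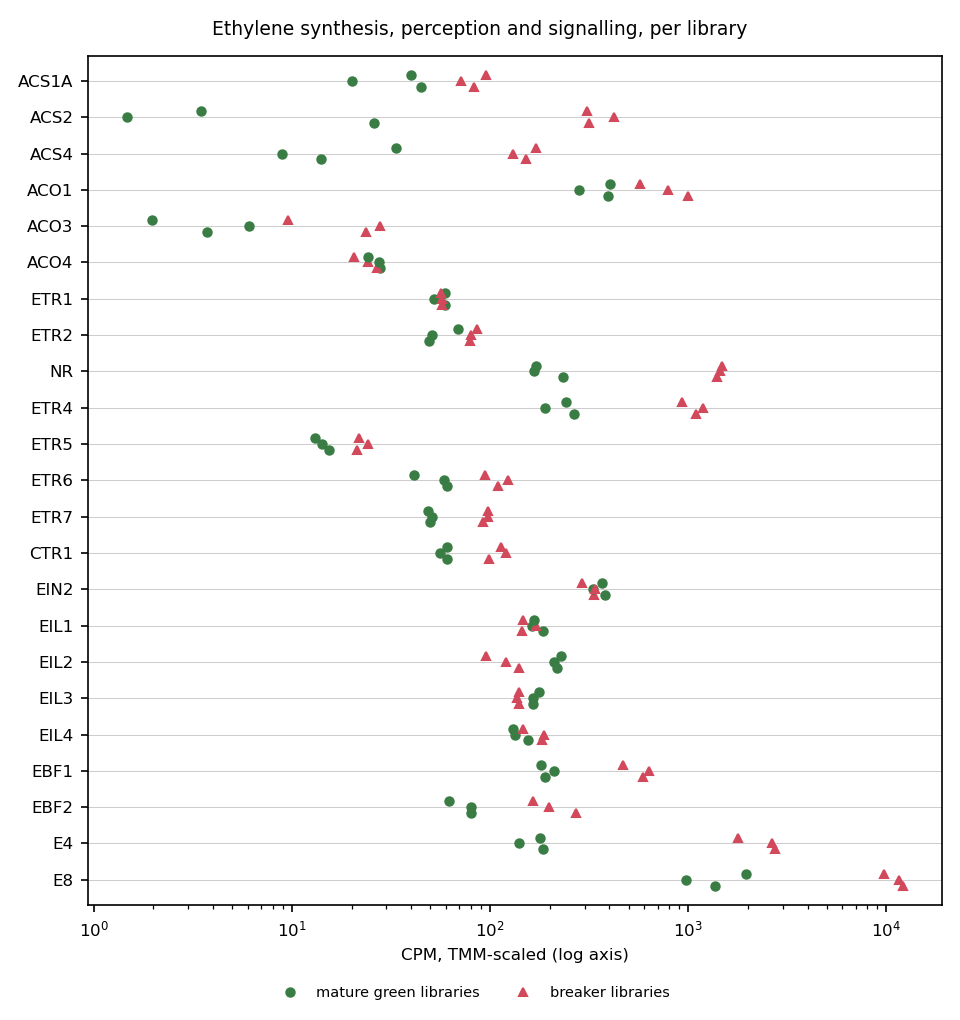
TMM-scaled CPM on a log axis of genes of ethylene synthesis (ACS, ACO), reception (ETR, NR), signalling (CTR1, EIN2, EIL, EBF) and response (E4, E8) in each of the 3 WT mature green libraries (green circles) and 3 WT breaker libraries (red triangles). The groups lie apart for ACS2, NR, ETR4, EBF1, EBF2, E4 and E8 and overlap for ETR1, EIN2 and EIL1.

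Among the receptors the rise was uneven. NR (Solyc09g075440), the receptor whose dominant mutation gave the Never-ripe tomato its name, measured 233, 166 and 171 CPM at mature green and 1394, 1447 and 1474 CPM at breaker; it rose by 2.92 ± 0.38 SE (adjusted p = 3.78e-05). ETR4 (Solyc06g053710) measured 264, 189 and 241 CPM at mature green and 1093, 1191 and 933 CPM at breaker and rose by 2.21 ± 0.27 SE (adjusted p = 2.54e-05). In NR and ETR4 the lowest breaker library stood far above the highest mature green library. ETR7 (Solyc05g055070), ETR5 (Solyc11g006180) and ETR2 (Solyc07g056580) rose by 0.95, 0.66 and 0.54. ETR6 (Solyc09g089610) missed the threshold at 1.02 (adjusted p = 0.0612) although its groups did not overlap, and ETR1 (Solyc12g011330) was at -0.00 (adjusted p = 0.964) with overlapping groups. By FPKM NR stood at 341 ± 8.69 at breaker, ETR4 at 342 ± 44.6 and ETR1 at 19.7 ± 0.379 (SD, n = 3).

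Downstream of the receptors, CTR1 (Solyc10g083610), the kinase through which receptors repress the response, rose by 0.90 ± 0.12 SE (adjusted p = 4.31e-05). EIN2 (Solyc09g007870), the membrane protein that relays the signal, was not called (log2 fold change -0.16 ± 0.10 SE, adjusted p = 0.236). Of 6 tested genes of the EIN3-like family, whose best known members EIN2 stabilises, 2 rose, 2 fell and 2 were not called. EIL2 (Solyc01g009170) went from 218, 209 and 228 to 140, 121 and 95.8 CPM and fell by 0.88 ± 0.12 SE (adjusted p = 5.45e-05). EIL3 (Solyc01g096810) fell by 0.28 ± 0.08 SE (adjusted p = 0.0108), and EIL1 (Solyc06g073720) and EIL4 (Solyc06g073730) were not called at -0.16 and 0.31. The 2 that rose, both described as ETHYLENE INSENSITIVE 3-like 3 and named here after their values were seen, were Solyc01g014480 (log2 fold change 0.44 ± 0.09 SE, adjusted p = 0.000941) and Solyc01g006650 (log2 fold change 0.78 ± 0.29 SE, adjusted p = 0.0406). The latter call was lost with upper-quartile factors (adjusted p = 0.0747), with no factors (adjusted p = 0.121) and without mature green replicate 2 (adjusted p = 0.132) or 3 (adjusted p = 0.113), breaker replicate 1 (adjusted p = 0.133) or 2 (adjusted p = 0.0694), or replicate 3 of cr at mature green (adjusted p = 0.0512) or breaker (adjusted p = 0.054). The F-box proteins that target these factors for breakdown rose. EBF1 (Solyc12g009560) measured 190, 211 and 180 CPM at mature green and 594, 637 and 471 CPM at breaker and rose by 1.55 ± 0.33 SE (adjusted p = 0.00166). EBF2 (Solyc07g008250) measured 80, 79.7 and 61.9 CPM at mature green and 271, 199 and 164 CPM at breaker and rose by 1.52 ± 0.36 SE (adjusted p = 0.00356). In neither did the groups overlap. E4 (Solyc03g111720), a methionine sulfoxide reductase, and E8 (Solyc09g089580), both known for their induction by ethylene, rose as well. E4 measured 185, 140 and 178 CPM at mature green and 2738, 2641 and 1774 CPM at breaker and rose by 3.83 ± 0.39 SE (adjusted p = 5.66e-06). E8 measured 1359, 978 and 1962 CPM at mature green and 12152, 11593 and 9674 CPM at breaker and rose by 2.96 ± 0.32 SE (adjusted p = 9.09e-06). Neither overlapped between the stages.

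Most of the tested ripening regulators rose. Of 16 listed 14 were tested, 9 rose and 1 fell. These became 9 and 2 with upper-quartile and 9 and 2 with no factors. AP2a (Solyc03g044300), an AP2 factor that restrains ethylene production, measured 95.1, 55 and 89.9 CPM at mature green and 489, 505 and 477 CPM at breaker and rose by 2.62 ± 0.31 SE (adjusted p = 2.03e-05). FUL1 (Solyc06g069430), a FRUITFULL MADS-box factor, measured 149, 117 and 170 CPM at mature green and 599, 611 and 592 CPM at breaker. CNR (Solyc02g077920), the SBP factor of the Colourless non-ripening locus, measured 132, 104 and 158 CPM at mature green and 417, 394 and 508 CPM at breaker, and NOR (Solyc10g006880), the NAC factor of the non-ripening locus, 218, 142 and 252 CPM at mature green and 540, 520 and 582 CPM at breaker. In all 4 the breaker libraries lay above the mature green libraries, with log2 fold changes of 2.04 ± 0.15 (SE) for FUL1, 1.74 ± 0.23 for CNR and 1.42 ± 0.29 for NOR. TAGL1 (Solyc07g055920), a MADS-box factor of fruit growth and ripening, rose by 0.61 ± 0.08 SE (adjusted p = 3.62e-05). Its relatives FUL2 (Solyc03g114830) and MADS1 (Solyc03g114840) were not called, at -0.12 ± 0.09 (SE) and 0.15 ± 0.17, nor were the homeobox gene HB1 (Solyc02g086930, -0.12 ± 0.13) and NOR-like1 (Solyc07g063420, 0.20 ± 0.09).

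Regulators of pigment took part. MYB12 (Solyc01g079620), the activator of flavonol synthesis, measured 18.2, 8.99 and 15.5 CPM at mature green and 58.4, 32.9 and 55.7 CPM at breaker and rose by 1.78 ± 0.28 SE (adjusted p = 0.000196). BBX20 (Solyc12g089240), a B-box activator of carotenoid formation, rose by 1.73 ± 0.18 SE (adjusted p = 4.87e-06), and APRR2-like (Solyc08g077230), a regulator of plastid number and pigment in green fruit, by 1.49 ± 0.23 SE (adjusted p = 0.000133). GLK2 (Solyc10g008160), the factor that builds fruit chloroplasts, was the 1 regulator called lower with TMM factors. It fell from 11.8, 11.3 and 14.8 to 0.298, 0.642 and 0.485 CPM (log2 fold change -4.71 ± 0.40 SE, adjusted p = 1.11e-06). HY5 (Solyc08g061130), the light-signalling bZIP factor, went from 8.66, 6.94 and 7.97 to 41.1, 29.6 and 26.8 CPM and rose by 2.05 ± 0.24 SE (adjusted p = 1.84e-05). The DNA demethylase DML2 (Solyc10g083630), which opens ripening promoters in tomato, rose from 783, 529 and 828 to 1539, 1641 and 1796 CPM (log2 fold change 1.22 ± 0.23 SE, adjusted p = 0.000771), with 7 counts on its opposite strand. The methyltransferase CMT3 (Solyc12g100330) fell by 0.42 ± 0.11 SE (adjusted p = 0.00832), while MET1 (Solyc11g030600) fell by 0.32 ± 0.12 SE (adjusted p = 0.0372), a call lost without mature green replicate 1 (adjusted p = 0.192), breaker replicate 2 (adjusted p = 0.0701) or breaker replicate 3 (adjusted p = 0.132).

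Over all transcription factor families, taken from the domain names in the deposited table, 662 of 1284 listed genes were tested, 150 rose and 211 fell. That is 54.5% called, against 48.3% of all tested genes. Heat stress factors leaned to the rise, with 11 of 19 tested rising and 3 falling, and so did E2F factors of the cell cycle with 4 of 8 rising and 1 falling. The bHLH family leaned to the fall (8 of 62 rose, 27 fell), as did MYB (17 of 103 rose, 39 fell), SBP (2 of 15, CNR and Solyc05g012040, rose and 8 fell) and TCP (none of 14 rose and 5 fell). NAC genes were more often higher (11 of 42) than lower (6) with TMM and upper-quartile factors, and that order turned with no factors. MADS-box genes (6 of 23 higher, 4 lower) turned with both. In both families the share of risers was close to the 23.4% over all tested genes. The share called was 40.5% of NAC and 43.5% of MADS-box genes, below the 48.3% of all tested genes. AP2/ERF genes, the family of the ethylene response factors, went both ways. Of 79 tested 19 rose, close to the 23.4% over all tested genes, and 29 fell, against 24.9%.

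**Figure D3:**
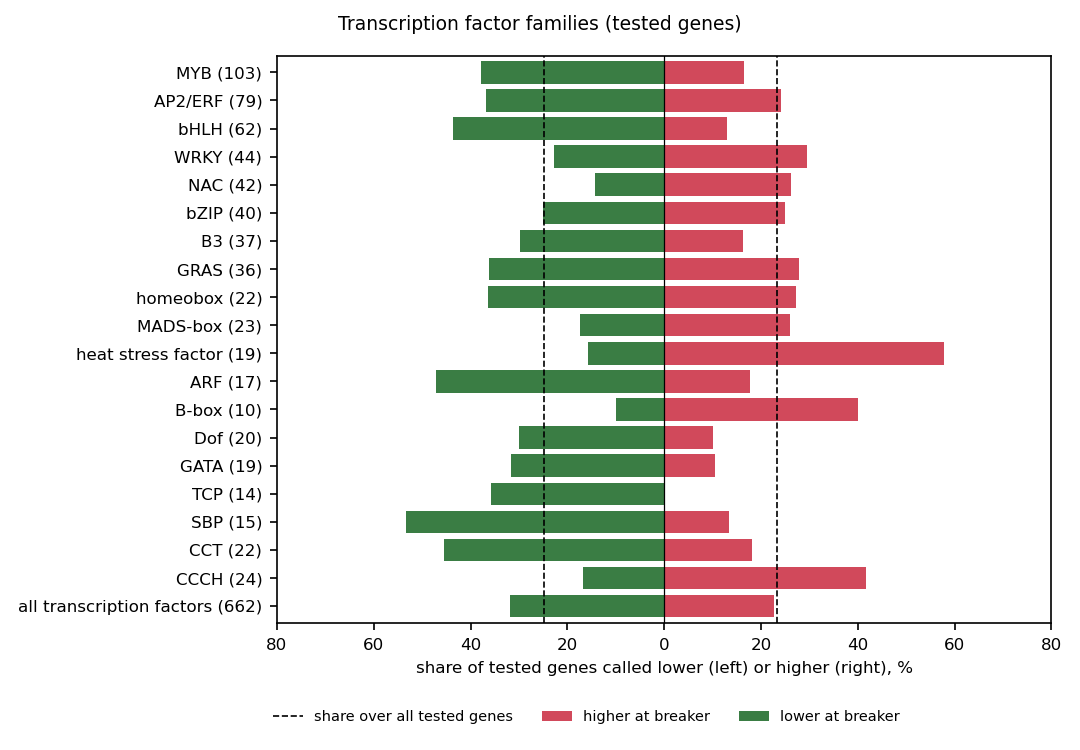
Share of tested genes of each transcription factor family called lower (green, left) or higher (red, right) at WT breaker than at WT mature green, with the number tested in brackets and dashed lines at 24.9% lower and 23.4% higher over all tested genes. Families with fewer than 10 tested genes are left out; heat stress factors stand out to the right, and SBP, ARF, CCT and bHLH to the left.

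Single factors moved far. The CONSTANS-like zinc finger gene Solyc05g009310, of a family known for daylength and light responses, went from 18.5, 18.6 and 17.8 to 0.298, 0.234 and 0.0606 CPM and fell by 6.48 ± 0.55 SE (adjusted p = 1.18e-06); its relatives Solyc03g119540 and Solyc12g096500 fell, with log2 fold changes of -5.36 ± 0.41 SE (adjusted p = 6.18e-07) and -3.87 ± 0.27 SE (adjusted p = 2.8e-07). MYB1R1 (Solyc03g113620) went from 499, 485 and 363 to 13.6, 10.2 and 14.2 CPM and fell by 5.15 ± 0.45 SE (adjusted p = 1.53e-06). The clock gene Late elongated hypocotyl (Solyc10g005080) rose by 1.55 ± 0.22 SE (adjusted p = 8.43e-05) and the pseudo-response regulator Solyc04g049670 fell by 0.75 ± 0.10 SE (adjusted p = 5.79e-05). Among the risers the AP2-like gene Solyc11g010710 went from 2.27, 0.998 and 1.53 to 24.1, 26.6 and 20.4 CPM (log2 fold change 3.88 ± 0.38 SE, adjusted p = 3.67e-06), WRKY35 (Solyc02g021680) from 4.59, 2 and 6.22 to 46.2, 44.4 and 47.9 CPM (log2 fold change 3.44 ± 0.36 SE, adjusted p = 5.84e-06), and NAP1 (Solyc05g007770), a NAC factor of senescence, from 16.2, 14.1 and 14.7 to 91, 80.9 and 53.1 CPM (log2 fold change 2.32 ± 0.30 SE, adjusted p = 3.77e-05). None of these genes had overlapping groups, but non-overlap was a condition for naming genes by the size of their change.

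Most carotenoid genes from the plastid precursors down to lycopene rose, while no lycopene cyclase did. Of 13 carotenoid genes listed, all were tested, 9 rose and 3 fell (median log2 fold change 0.94). The precursor genes DXS1 (Solyc01g067890) and HDR (Solyc01g109300), the first and last enzymes of the plastid isoprenoid route, rose by 0.79 ± 0.12 SE (adjusted p = 9.95e-05) and 0.74 ± 0.11 SE (adjusted p = 9.83e-05), with 270 counts on the strand opposite HDR, while DXR (Solyc03g114340) between them was not called (log2 fold change -0.17 ± 0.10 SE, adjusted p = 0.169). Of the geranylgeranyl diphosphate synthases, GGPS2 (Solyc04g079960) rose from 9.07, 8.15 and 14.6 to 53.5, 62.9 and 34.9 CPM and GGPS3 (Solyc02g085700) from 47.7, 44.2 and 54.7 to 94, 112 and 105, while GGPS1 (Solyc11g011240) was not called at -0.21.

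The desaturases and isomerases that turn phytoene into lycopene rose together. ZISO (Solyc12g098710), zeta-carotene isomerase, measured 120, 54.6 and 76.4 CPM at mature green and 2942, 2989 and 2950 CPM at breaker and rose by 5.14 ± 0.43 SE (adjusted p = 1.01e-06), the largest change of the carotenoid list. PDS (Solyc03g123760), phytoene desaturase, measured 152, 154 and 172 CPM at mature green and 339, 373 and 367 CPM at breaker and rose by 1.18 ± 0.09 SE (adjusted p = 5.84e-07); CRTISO (Solyc10g081650), the isomerase of the tangerine locus, measured 123, 128 and 136 CPM at mature green and 312, 308 and 356 CPM at breaker and rose by 1.34 ± 0.10 SE (adjusted p = 6.25e-07). Every breaker library exceeded every mature green library in these 3 genes, and the 3 breaker values of ZISO lay within a narrow range. PSY2 (Solyc02g081330), the leaf-type phytoene synthase, rose by 0.66 ± 0.13 SE (adjusted p = 0.000954) from a level of 11.3 ± 0.671 FPKM (SD, n = 3), far under the 5051 ± 163 FPKM of PSY1 at breaker.

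At the branch point, the cyclases that draw lycopene away did not rise. LCYE (Solyc12g008980), which leads toward lutein, was low throughout at 2.11, 3.21 and 1.8 CPM at mature green and 0.476, 0.117 and 1.09 CPM at breaker and fell by 2.08 ± 0.50 SE (adjusted p = 0.00376); the log2 fold change was -2.98 without breaker replicate 3. LCYB (Solyc04g040190) fell by 0.69 ± 0.17 SE (adjusted p = 0.00431), from 23.8, 21.8 and 27.7 to 15.2, 16.3 and 13.8 CPM. CYCB (Solyc06g074240), the chromoplast cyclase, was not called (log2 fold change 0.28 ± 0.20 SE, adjusted p = 0.26) and its groups overlapped. Further along, the beta-carotene hydroxylases CRTRB1 (Solyc06g036260) and CRTRB2 (Solyc03g007960) rose by 0.94 ± 0.15 SE (adjusted p = 0.000165) and 1.76 ± 0.17 SE (adjusted p = 3.16e-06). ZEP (Solyc02g090890), zeaxanthin epoxidase, fell by 0.65 ± 0.14 SE (adjusted p = 0.00187), and VDE (Solyc04g050930), violaxanthin de-epoxidase, rose by 0.65 ± 0.13 SE (adjusted p = 0.00113), with 8268 counts on its opposite strand.

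Abscisic acid, made from the same pigments, showed opposite moves in its gene pair. NCED1 (Solyc07g056570), the cleavage enzyme of the committed step, went from 364, 280 and 330 to 527, 461 and 541 CPM and rose by 0.65 ± 0.14 SE (adjusted p = 0.00194), while NCED2 (Solyc08g016720) fell by 1.32 ± 0.20 SE (adjusted p = 0.000143). The breakdown enzyme CYP707A2 (Solyc08g005610) rose by 2.38 ± 0.46 SE (adjusted p = 0.000798), from 19.7, 18.1 and 14.3 to 126, 84.1 and 62.6 CPM. Among other genes of the hormone, the aldehyde oxidase sitiens (Solyc01g009230) that makes abscisic acid fell by 1.58 ± 0.15 SE (adjusted p = 2.73e-06), and the receptors described as PYL1 (Solyc06g061180) and PYL10 (Solyc01g095700) fell, with log2 fold changes of -1.68 ± 0.17 SE (adjusted p = 4.87e-06) and -1.65 ± 0.25 SE (adjusted p = 0.000113) while PYL5 (Solyc09g015380) rose by 1.26 ± 0.27 SE (adjusted p = 0.00159). The class of abscisic acid receptors and response genes held 8 risers and 10 fallers among 29 tested.

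**Figure D4:**
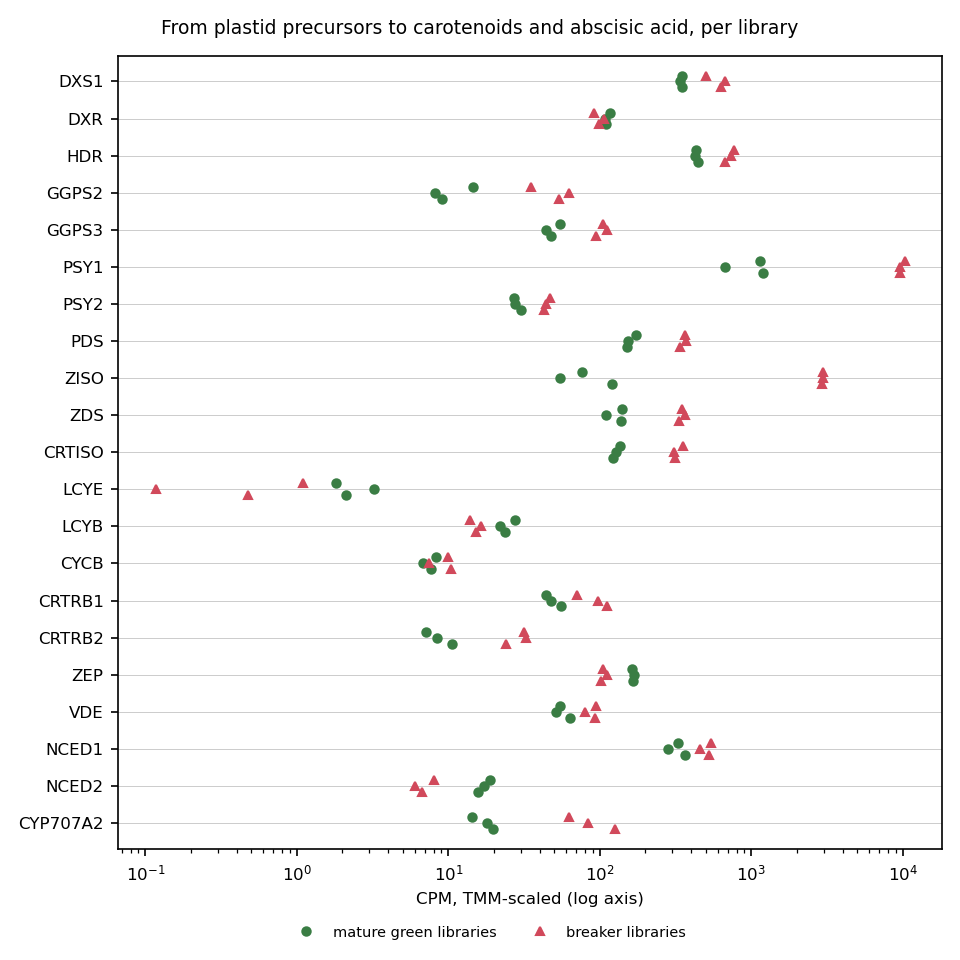
TMM-scaled CPM on a log axis of genes from the plastid isoprenoid route (DXS1 to GGPS3) through lycopene synthesis (PSY1 to CRTISO), the cyclases (LCYE, LCYB, CYCB), the xanthophyll enzymes and abscisic acid, in each WT mature green (green circles) and WT breaker (red triangles) library. PSY1 and ZISO show wide gaps to the right; LCYE, LCYB, ZEP and NCED2 lie lower at breaker.

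Most photosystem and antenna genes fell, while among plastid ribosomal proteins and fibrillins more genes rose than fell. Of photosystem and antenna genes 68 of 184 listed genes were tested, 8 rose and 47 fell (median log2 fold change -1.35); their summed level was 5379, 5198 and 5157 CPM at mature green and 3203, 3163 and 2677 CPM at breaker. Antenna genes fell furthest: CAB3C (Solyc03g005760) went from 474, 298 and 404 to 18.3, 16.1 and 8.6 CPM and Solyc03g115900 from 40, 30.9 and 30.8 to 0.655, 1.34 and 0.969, with log2 fold changes of -4.77 ± 0.34 SE (adjusted p = 3.32e-07) and -5.09 ± 0.36 SE (adjusted p = 3.65e-07). A run of 7 CAB1B-type antenna genes on chromosome 2 (SL4.0, 38517238 to 38537070), neighbours among the tested genes, was called lower. Runs were picked for 1 shared direction, so that direction is not a result. Its last gene, Solyc02g071010, fell by 4.50 ± 0.64 SE (adjusted p = 7.65e-05) (-5.29 without breaker replicate 1). Solyc02g070970, Solyc02g070980 and Solyc02g071000 were at 0 counts in all 3 breaker libraries, at least 12.1-fold, 17.2-fold and 31.1-fold lower against a floor of 3 counts over the group. Near-identical copies can share reads, so the split of counts within the run is uncertain.

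Carbon fixation was more divided than the photosystem genes, with 9 of 31 tested Calvin cycle genes rising and 10 falling. Over all tested genes 23.4% rose and 24.9% fell, so a split of this kind is not particular to the class. The share called was 61.3%, against 48.3% of all tested genes. The counts became 9 and 12 with upper-quartile and 7 and 13 with no factors. RBCS1 (Solyc02g063150), a Rubisco small subunit, fell by 4.89 ± 0.44 SE (adjusted p = 1.77e-06) from 53.9, 73 and 47.6 CPM to 2.5, 2.22 and 1.15 CPM, and RBCS2 (Solyc03g034220) fell by 1.13 ± 0.20 SE (adjusted p = 0.000542). In contrast the 60 kDa chaperonin Solyc11g069790, described as binding the Rubisco large subunit, rose by 2.66 ± 0.14 SE (adjusted p = 4.81e-08) from 153, 147 and 130 to 1079, 945 and 699 CPM. Chlorophyll synthesis genes were more often higher (12 of 23 tested) than lower (7) with TMM and upper-quartile factors and more often lower with no factors (6 higher, 9 lower). The magnesium chelatase subunit Solyc04g015750, at the entry to chlorophyll, rose by 1.37 ± 0.14 SE (adjusted p = 5.92e-06), and the cyclase Solyc10g077040 after it fell by 0.93 ± 0.13 SE (adjusted p = 6.96e-05).

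All 4 chlorophyll breakdown genes rose. PPH (Solyc01g088090), pheophytinase, measured 222, 157 and 276 CPM at mature green and 593, 660 and 592 CPM at breaker and rose by 1.49 ± 0.18 SE (adjusted p = 2.27e-05). PAO (Solyc11g066440), which opens the ring, went from 161, 151 and 207 to 304, 342 and 377 CPM and rose by 0.98 ± 0.14 SE (adjusted p = 6.38e-05). NYC1 (Solyc07g024000), which reduces chlorophyll b, rose by 0.61 ± 0.13 SE (adjusted p = 0.00168), and SGR1 (Solyc08g080090), the stay-green protein, by 1.45 ± 0.24 SE (adjusted p = 0.000279). Of genes of plastid division and fibrillins, the proteins that coat pigment-holding lipid bodies, 23 of 25 listed genes were tested, 13 rose and 3 fell (median log2 fold change 0.33). These became 9 and 4 with upper-quartile and 9 and 5 with no factors. The fibrillin Solyc02g081170 measured 96.5, 87.8 and 117 CPM at mature green and 360, 339 and 332 CPM at breaker and rose by 1.78 ± 0.11 SE (adjusted p = 1.23e-07), and the related Solyc10g006290 rose by 1.17 ± 0.10 SE (adjusted p = 1.36e-06). Of plastid ribosomal proteins 82 of 163 listed genes were tested, 31 rose and 6 fell (median log2 fold change 0.20). These became 24 and 10 with upper-quartile and 18 and 16 with no factors. Their summed level was 2984, 3041 and 3332 CPM at mature green and 3953, 3946 and 3595 CPM at breaker.

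Some wall-softening genes rose very far, while more pectin-cutting, pectinesterase and cellulose synthase genes fell than rose. Of 8 softening genes listed 7 were tested, 6 rose and 1 fell (median log2 fold change 4.59). PG2A (Solyc10g080210), the polygalacturonase of ripe fruit (SL4.0, chromosome 10, 60670766 to 60676673), measured 15.4, 15.2 and 75.1 CPM at mature green and 7987, 6627 and 9348 CPM at breaker; its log2 fold change was 7.83 ± 0.89 and 9.03 without mature green replicate 3. The pectate lyase PL (Solyc03g111690) measured 194, 41.1 and 129 CPM at mature green and 3935, 4672 and 3394 CPM at breaker, and a further pectate lyase, Solyc09g091430, 5.31, 3.26 and 2.84 CPM at mature green and 133, 81.5 and 121 CPM at breaker, with log2 fold changes of 5.04 ± 0.63 (adjusted p = 2.78e-05) and 4.87 ± 0.38 (adjusted p = 6.92e-07). In all 3 the groups were far apart. EXP1 (Solyc06g051800), the ripening expansin, rose by 3.24 ± 0.24 SE (adjusted p = 5.28e-07) from 211, 141 and 265 to 1928, 2178 and 1717 CPM. TBG4 (Solyc12g008840), a beta-galactosidase, rose by 1.76 ± 0.20 SE (adjusted p = 1.55e-05). The mannanase MAN4a (Solyc01g008710) rose by 4.59 ± 0.66 SE (adjusted p = 8.45e-05) (5.49 without mature green replicate 3) and the endoglucanase CEL2 (Solyc09g010210) by 5.14 ± 0.47 SE (adjusted p = 2.29e-06) (5.76 without mature green replicate 1). TBG6 (Solyc02g084720), a beta-galactosidase of fruit growth, fell by 0.66 ± 0.22 SE (adjusted p = 0.0242) with overlapping groups, a call lost without mature green replicate 1 (adjusted p = 0.105), breaker replicate 1 (adjusted p = 0.0988) or breaker replicate 2 (adjusted p = 0.0648); its opposite strand held 3751 counts.

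Over the whole pectin-cutting class 35 of 96 listed genes were tested, 11 rose and 15 fell (median log2 fold change -0.29), yet the summed level was 868, 746 and 898 CPM at mature green and 12538, 11888 and 13406 CPM at breaker. Of pectinesterases and their inhibitors 43 of 150 listed genes were tested, 8 rose and 19 fell (median log2 fold change -0.46), and their summed level of 5175, 5251 and 7542 CPM at mature green and 6002, 6513 and 7304 CPM at breaker overlapped between the stages. PMEU1 (Solyc03g123630), the ubiquitous pectin methylesterase, went from 277, 223 and 160 to 13.3, 12.8 and 15 CPM and fell by 4.0 ± 0.32 SE (adjusted p = 7.78e-07). The fruit forms differed: PME2.1 (Solyc07g064180) rose by 0.80 ± 0.21 SE (adjusted p = 0.00748) and PME1.9 (Solyc07g064170), the most abundant, was not called at 0.22 (adjusted p = 0.513) and overlapped between the stages. The beta-xylosidase LEXYL1 (Solyc10g047030) rose from 1.44, 0.946 and 2.13 to 17.7, 28.8 and 20.3 CPM (log2 fold change 3.89 ± 0.37 SE, adjusted p = 2.78e-06), while the beta-galactosidase Solyc01g110000 fell from 317, 362 and 316 to 17.6, 19.2 and 19.8 CPM (log2 fold change -4.14 ± 0.21 SE, adjusted p = 3.92e-08).

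Among genes that build the wall more fell than rose. Of cellulose synthase genes 23 of 42 listed genes were tested, 2 rose and 9 fell (median log2 fold change -0.47); Solyc07g051820 went from 58.8, 51.4 and 44.9 to 1.07, 0.817 and 0.666 CPM and fell by 5.91 ± 0.24 SE (adjusted p = 1.54e-08), and Solyc03g097050 rose by 2.39 ± 0.37 SE (adjusted p = 0.000149). Of arabinogalactan and fasciclin-like proteins 26 of 48 listed genes were tested, 2 rose and 17 fell (median log2 fold change -0.87). Of expansins 13 of 42 listed genes were tested, 2 rose, EXP1 among them, 4 fell and 7 were not called. Among the fallers was Solyc02g088100, expansin 5 (log2 fold change -3.03 ± 0.30 SE, adjusted p = 4.39e-06). Solyc10g083670, described as a glucomannan mannosyltransferase, a maker of hemicellulose, had 1086 counts summed over mature green and 3 over breaker, a ratio of 322 (95% counting interval 110 to 1562). The suberin-type peroxidase TAP1 (Solyc02g079500) went from 136, 177 and 175 to 0.476, 0.934 and 2.18 CPM and fell by 7.09 ± 0.59 SE (adjusted p = 1.08e-06) (-7.83 without breaker replicate 3). Among class III peroxidases as a whole 31 of 122 listed genes were tested, 4 rose and 14 fell (median log2 fold change -0.70).

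**Figure D5:**
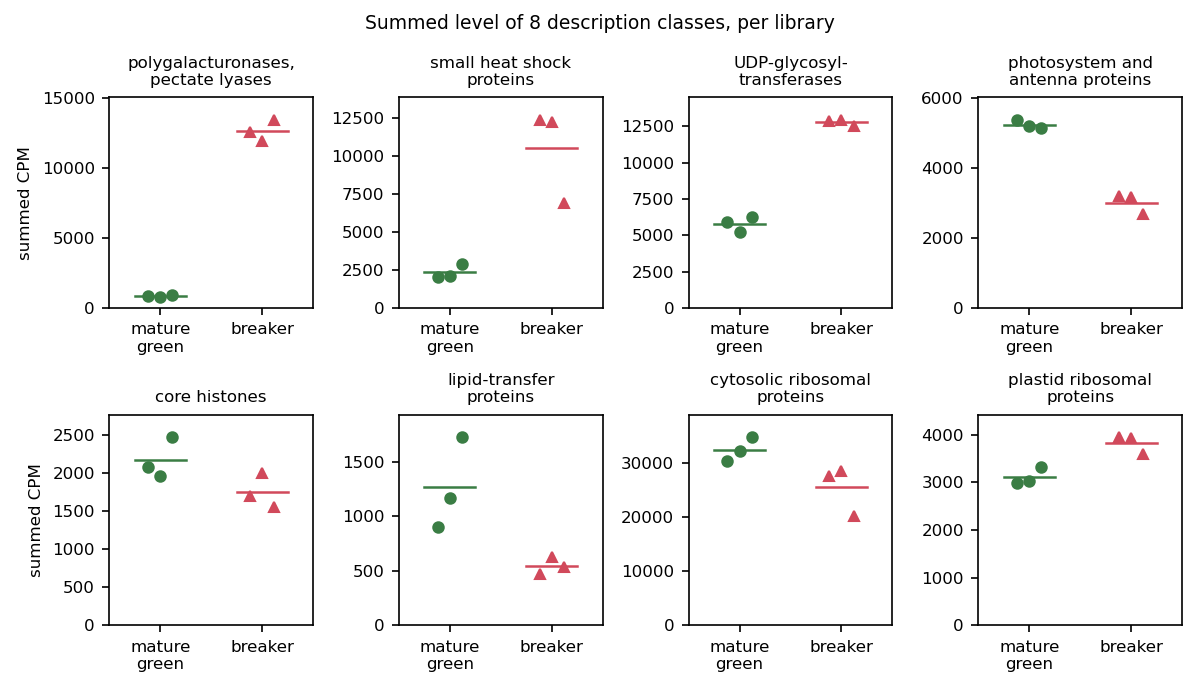
Summed TMM-scaled CPM of 8 description classes in each WT library; circles are mature green, triangles breaker, horizontal bars the mean of 3, and every axis starts at 0. Polygalacturonases and pectate lyases, small heat shock proteins, UDP-glycosyltransferases and plastid ribosomal proteins sum higher at breaker, photosystem, lipid-transfer and cytosolic ribosomal proteins lower, and the core histone libraries overlap.

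TIV1 (Solyc03g083910), the vacuolar invertase, measured 2305, 1931 and 4954 CPM at mature green and 12435, 11191 and 8645 CPM at breaker and rose by 1.81 ± 0.37 SE (adjusted p = 0.00124). SUS1 (Solyc12g009300), sucrose synthase, went from 463, 490 and 242 to 190, 115 and 79.4 CPM and fell by 1.64 ± 0.34 SE (adjusted p = 0.00147). Of starch synthesis, AGPS1 (Solyc07g056140) fell by 0.63 ± 0.12 SE (adjusted p = 0.000962) and GBSS1 (Solyc08g083320) fell by 0.74 ± 0.14 SE (adjusted p = 0.000955), while AGPL1 (Solyc01g079790) was not called at -0.45. Sugar transporters leaned to the fall, in that 40 of 86 listed genes were tested, 4 rose and 20 fell (median log2 fold change -0.52). Among the SWEET sugar exporters Solyc04g064620 went from 15.7, 14.3 and 17 to 0.476, 0.642 and 0.545 CPM and fell by 4.80 ± 0.26 SE (adjusted p = 5.44e-08), and Solyc05g024260 rose by 1.48 ± 0.29 SE (adjusted p = 0.000963). None of the SWEET groups named here overlapped, which was a condition for naming genes by the size of their change.

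The phosphoenolpyruvate carboxylases Solyc07g062530 and Solyc04g006970, which make organic acid carbon, fell, with log2 fold changes of -2.14 ± 0.14 SE (adjusted p = 1.92e-07) and -1.88 ± 0.20 SE (adjusted p = 7.59e-06). The kinase that activates such carboxylases, Solyc06g053620, rose from 118, 88.8 and 177 to 759, 752 and 936 CPM (log2 fold change 2.67 ± 0.31 SE, adjusted p = 1.34e-05). The pyruvate kinase Solyc10g083720 rose by 3.06 ± 0.17 SE (adjusted p = 5.56e-08) and the phosphofructokinase Solyc08g066100 fell by 1.95 ± 0.14 SE (adjusted p = 3.8e-07). The glutamate decarboxylases GAD2 (Solyc11g011920) and GAD3 (Solyc01g005000), which make the GABA stored in green fruit, fell, with log2 fold changes of -2.99 ± 0.23 SE (adjusted p = 6.92e-07) and -1.19 ± 0.29 SE (adjusted p = 0.00435), and GAD1 (Solyc03g098240) was not called (0.03 ± 0.20). GABA-T1 (Solyc07g043310), the enzyme that breaks GABA down, fell by 0.41 ± 0.15 SE (adjusted p = 0.0344), a call lost without mature green replicate 1 (adjusted p = 0.0692), mature green replicate 2 (adjusted p = 0.084), mature green replicate 3 (adjusted p = 0.0617), breaker replicate 1 (adjusted p = 0.0629) or breaker replicate 3 (adjusted p = 0.126). Of mitochondrial respiration genes 75 of 200 listed genes were tested, 28 rose and 4 fell (median log2 fold change 0.28). These became 22 and 8 with upper-quartile and 16 and 12 with no factors. The succinate dehydrogenase subunit Solyc02g085350 rose by 1.46 ± 0.14 SE (adjusted p = 2.83e-06).

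Most tested genes of aroma synthesis and all tested flavonoid genes rose. Of 9 aroma genes listed 8 were tested and 6 rose. LOXC (Solyc01g006540), the plastid lipoxygenase of green-leaf volatiles, measured 36.3, 19.7 and 53.2 CPM at mature green and 1081, 1062 and 1283 CPM at breaker and rose by 4.97 ± 0.42 SE (adjusted p = 1.17e-06). ADH2 (Solyc06g059740), alcohol dehydrogenase, went from 1511, 2052 and 1935 to 7872, 7056 and 4609 CPM (log2 fold change 1.83 ± 0.20 SE, adjusted p = 7.5e-06). BCAT1 (Solyc12g088220), of branched-chain amino acids, rose by 3.70 ± 0.37 SE (adjusted p = 4.21e-06), and the ester-forming AAT1 (Solyc08g005770) by 3.50 ± 0.28 SE (adjusted p = 8.43e-07), with 5764 counts on the opposite strand of AAT1. LOXA (Solyc08g014000) and AADC2 (Solyc08g006740) were not called at -0.90 (adjusted p = 0.0934) and -1.76 (adjusted p = 0.289). A run of 4 lipoxygenase genes on chromosome 1 (81726419 to 81770629), LOXB (Solyc01g099190) among them, rose by 1.17 to 5.67, the shared direction being the rule for picking runs. Features on the opposite strand of LOXB held 9988 counts.

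All 5 flavonoid genes tested of 6 listed rose. CHS2 (Solyc05g053550), chalcone synthase, measured 71.2, 19.5 and 110 CPM at mature green and 646, 526 and 559 CPM at breaker and rose by 3.11 ± 0.49 SE (adjusted p = 0.000181), and CHS1 (Solyc09g091510) rose by 4.46 ± 0.69 SE (adjusted p = 0.000162) (5.29 without mature green replicate 1). The chalcone isomerase-like gene CHIL (Solyc05g052240) rose by 3.16 ± 0.37 SE (adjusted p = 1.74e-05) and flavonol synthase FLS (Solyc11g013110) by 1.68 ± 0.27 SE (adjusted p = 0.00019). In contrast all 6 glycoalkaloid genes tested of 9 listed fell, with a median log2 fold change of -3.15. GAME4 (Solyc12g006460), the cytochrome P450 that commits sterols to alkaloids, went from 4.69, 3.63 and 4.96 to 0.238, 0.234 and 0.424 CPM and fell by 3.86 ± 0.35 SE (adjusted p = 2e-06). GAME6 (Solyc07g043460), a hydroxylase before it, fell by 2.24 ± 0.32 SE (adjusted p = 7.91e-05). The glycosyltransferases GAME1 (Solyc07g043490) and GAME18 (Solyc07g043500), which add the sugars of tomatine, fell, with log2 fold changes of -1.46 ± 0.26 SE (adjusted p = 0.000501) and -4.11 ± 0.49 SE (adjusted p = 1.99e-05). No group of these 4 overlapped.

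The exporter of glycoalkaloids from the vacuole, GORKY (Solyc03g120570), moved against that route: it measured 12.2, 2.31 and 2.51 CPM at mature green and 383, 489 and 388 CPM at breaker and rose by 6.20 ± 0.64 SE (adjusted p = 6.11e-06), the fold change being 7.44 without mature green replicate 1, with 723 counts on its opposite strand. It stands in a run of 4 transporter genes of the NRT1 family on chromosome 3 (63363640 to 63392672) that rose by 0.54 to 6.20. Of UDP-glycosyltransferases 182 of 358 listed genes were tested, 41 rose and 50 fell (median log2 fold change -0.12). The share called, 50%, was near the 48.3% of all tested genes. Yet their summed level was 5902, 5219 and 6265 CPM at mature green and 12905, 12951 and 12508 CPM at breaker. The most abundant of them was UGT73C4 (Solyc10g085880), which measured 684, 597 and 926 CPM at mature green and 4257, 3978 and 3550 CPM at breaker and rose by 2.42 ± 0.22 SE (adjusted p = 2.1e-06). A run of 4 UGT76E1-type genes on chromosome 10 (63654816 to 63667939) rose by 1.57 to 3.83. Of cytochromes P450 129 of 318 listed genes were tested, 38 rose and 48 fell (median log2 fold change -0.24); Solyc09g066150 rose from 90.4, 46.9 and 80.5 to 1699, 1647 and 1031 CPM (log2 fold change 4.33 ± 0.37 SE, adjusted p = 1.31e-06) and CYP85A1 (Solyc02g089160), which makes brassinosteroids, from 10.7, 9.56 and 6.98 to 74.4, 94.5 and 76.6 CPM (log2 fold change 3.17 ± 0.29 SE, adjusted p = 2.22e-06).

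Several of the steepest rises lay in genes whose part in ripening is little described. Among them were 3 decarboxylase genes on chromosome 8, described as acting on serine or histidine. They were picked as steep rises, so their shared direction is fixed by that choice. Solyc08g066240 measured 56.5, 13.3 and 22.1 CPM at mature green and 2508, 2695 and 1687 CPM at breaker, Solyc08g066250 3.66, 0 and 1.15 CPM at mature green and 332, 320 and 135 CPM at breaker and Solyc08g066260 0.0515, 0.105 and 0.164 CPM at mature green and 54.9, 89.3 and 20.5 CPM at breaker. Their log2 fold changes were 6.23 (7.02 without mature green replicate 1), 7.34 (8.85 without mature green replicate 1) and 8.93. They are neighbours of one description, and reads shared between such copies would leave the split of counts uncertain. The methylesterase Solyc02g065260 (SL4.0, chromosome 2, 34463063 to 34464945) held 18 counts over the mature green libraries and measured 252, 521 and 301 CPM at breaker (log2 fold change 10.11 ± 0.83 SE, adjusted p = 9.78e-07; 12.54 without mature green replicate 1). The subtilase Solyc02g072370 held 2 counts at mature green and 1241 at breaker, a ratio of 699 (95% counting interval 193 to 5775). Among the 10 largest falls was that of arginase 2 (Solyc01g091170), which releases urea from arginine, from 52.5, 41.9 and 49.4 to 0.119, 0.0584 and 0.121 CPM (log2 fold change -8.82 ± 0.52 SE, adjusted p = 8e-08).

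Surface genes fell in number, with exceptions of large size. Of GDSL lipases and cuticle enzymes 65 of 162 listed genes were tested, 6 rose and 31 fell (median log2 fold change -0.84). CUS1 (Solyc11g006250), the cutin synthase, fell by 5.57 ± 1.36 SE (adjusted p = 0.0043) from 11.6, 37.2 and 3.11 to 0, 0.759 and 0.303 CPM; the log2 fold change was -4.34 without mature green replicate 2 and -6.78 without breaker replicate 2. The wax elongase CER6 (Solyc02g085870) was not called (log2 fold change -0.05 ± 0.30 SE, adjusted p = 0.913), and its groups overlapped. The elongase-type ketoacyl-CoA synthase Solyc05g009270 rose from 1.13, 0.998 and 0.927 to 38.1, 37.2 and 39.9 CPM (log2 fold change 5.22 ± 0.41 SE, adjusted p = 7e-07). Of lipid-transfer proteins, which carry surface lipids, 33 of 125 listed genes were tested, 3 rose and 20 fell (median log2 fold change -2.09); Solyc03g034370 went from 123, 175 and 153 to 6.07, 6.36 and 9.57 CPM and fell by 4.36 ± 0.40 SE (adjusted p = 2.09e-06). Water channels leaned the same way, in that 32 of 53 listed genes were tested, 3 rose and 15 fell (median log2 fold change -0.47).

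Most tested small heat shock genes rose. Of these 27 of 36 listed genes were tested, 17 rose and 1 fell (median log2 fold change 1.83), against a share of 23.4% over all genes, and the summed level was 2055, 2105 and 2877 CPM at mature green and 12360, 12247 and 6872 CPM at breaker. The class I gene Solyc12g042830 measured 3.3, 0.893 and 3.33 CPM at mature green and 65.4, 38.1 and 33.8 CPM at breaker and rose by 4.19 ± 0.46 SE (adjusted p = 9.61e-06), and the most abundant one, Solyc06g076520, 429, 597 and 835 CPM at mature green and 2340, 1927 and 895 CPM at breaker, rising by 1.47 ± 0.35 SE (adjusted p = 0.00339). Solyc05g014280 rose by 6.54 ± 0.59 SE (adjusted p = 1.92e-06) (5.93 without breaker replicate 1). Breaker replicate 3 stood lowest of its group in the sum and yet above all 3 mature green libraries. Of the chaperones HSP70, HSP90, HSP100 and DnaJ 142 of 196 listed genes were tested, 57 rose and 21 fell (median log2 fold change 0.20). These became 45 and 27 with upper-quartile and 39 and 35 with no factors. The disaggregase ClpB-type gene Solyc03g115230 rose by 3.26 ± 0.33 SE (adjusted p = 4.39e-06) and the HSP70 gene Solyc11g020040 by 3.03 ± 0.27 SE (adjusted p = 1.72e-06), while the constitutive HSC-2 (Solyc09g010630) fell by 1.53 ± 0.19 SE (adjusted p = 2.2e-05). The heat stress factor B-1 (Solyc02g090820) rose from 24.7, 21.2 and 23.2 to 114, 90 and 79 CPM (log2 fold change 2.03 ± 0.13 SE, adjusted p = 1.7e-07).

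Of proteasome subunits 58 of 75 listed genes were tested, 21 rose and 3 fell (median log2 fold change 0.16), a balance that turned with no normalization factors. Of autophagy genes 28 of 30 listed genes were tested, 11 rose and 2 fell (median log2 fold change 0.16), which turned likewise. Subtilases, extracellular proteases, leaned to the fall, in that 45 of 112 listed genes were tested, 5 rose and 23 fell (median log2 fold change -0.90). A run of 5 subtilase genes on chromosome 8 (61390562 to 61429202) fell, with log2 fold changes between -4.07 and -1.80, and a run of 4 on chromosome 1 (74928468 to 74939115) likewise, between -5.53 and -2.56. The genes of each run share a description, and reads shared between copies would leave the split of counts uncertain.

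Receptor and defence genes were more often lower than higher at breaker. Of receptor-like kinases 422 of 805 listed genes were tested, 61 rose and 160 fell (median log2 fold change -0.44), of disease resistance proteins 157 of 356 listed genes were tested, 18 rose and 58 fell (median log2 fold change -0.32), and of chitinases, glucanases and pathogenesis-related proteins 76 of 174 listed genes were tested, 11 rose and 35 fell (median log2 fold change -0.78). Among the receptor kinases that rose was Solyc02g070890, described as Flagellin Sensing 2, the receptor of bacterial flagellin, which measured 12, 9.93 and 10.4 CPM at mature green and 129, 141 and 109 CPM at breaker and rose by 3.55 ± 0.37 SE (adjusted p = 6.75e-06). Solyc04g007070, described as tm-2, the allele name of a virus resistance gene, fell by 2.27 ± 0.37 SE (adjusted p = 0.00025). A run of 4 STH-2-type pathogenesis-related genes on chromosome 9 (66441081 to 66457134) fell, with log2 fold changes between -3.28 and -2.53.

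Other hormones changed at single genes. Among auxin response genes 123 of 281 listed genes were tested, 24 rose and 41 fell (median log2 fold change 0.01). SAUR69 (Solyc09g008170) went from 1.19, 0 and 0.818 to 46.4, 53.1 and 27.7 CPM and rose by 5.97 ± 0.91 SE (adjusted p = 0.000273) (6.70 without mature green replicate 1). The amido synthetase GH3 gene Solyc01g107390, of a family that joins hormones to amino acids, rose by 3.40 ± 0.27 SE (adjusted p = 7.17e-07), and IAA3 (Solyc09g065850), a repressor of auxin response, by 4.30 ± 0.64 SE (adjusted p = 0.00011) with 2253 counts on its opposite strand. Gibberellin 2-oxidase 2 (Solyc07g056670), which inactivates gibberellin, rose by 3.92 ± 0.54 SE (adjusted p = 6.34e-05), and gibberellin 20-oxidase 3 (Solyc11g072310), which makes its precursor, by 2.54 ± 0.43 SE (adjusted p = 0.000328). The jasmonate enzyme OPR3 (Solyc07g007870) fell by 2.15 ± 0.16 SE (adjusted p = 5.42e-07), and the brassinosteroid receptor curl-3 (Solyc04g051510) fell by 0.87 ± 0.13 SE (adjusted p = 0.000122).

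Most tested core histone genes fell. Of core histone genes 53 of 83 listed genes were tested, 1 rose and 32 fell (median log2 fold change -0.83); the summed level, 2078, 1953 and 2469 CPM at mature green and 1701, 1994 and 1554 CPM at breaker, overlapped between the stages. The H3 gene Solyc01g086820 went from 21.6, 17.8 and 20.3 to 4.53, 5.25 and 5.88 CPM and fell by 1.93 ± 0.16 SE (adjusted p = 1e-06), while the most abundant, Solyc11g010230, was not called at 0.24 (adjusted p = 0.128). Of replication and cell cycle genes 33 of 126 tested rose and 31 fell, an order that turned with upper-quartile and with no factors. The share called, 50.8%, was near the 48.3% of all tested genes. Among these replication and cell cycle genes the replicative DNA helicase genes Solyc07g005020, Solyc11g040120 and Solyc02g082180 rose by 1.65 ± 0.20 SE (adjusted p = 2.05e-05), 1.41 ± 0.14 SE (adjusted p = 4.13e-06) and 1.36 ± 0.16 SE (adjusted p = 1.81e-05), and the cell cycle factor E2FA (Solyc01g007760) by 0.88 ± 0.09 SE (adjusted p = 5.94e-06). Solyc07g005020 measured 23.6, 22.6 and 23 CPM at mature green and 66.2, 77.6 and 73.2 CPM at breaker, with no overlap, as the naming rule required. The cyclin-dependent kinase Solyc08g066330 and cyclin A3.1 (Solyc12g088530), which drive division, fell, with log2 fold changes of -1.99 ± 0.13 SE (adjusted p = 2.04e-07) and -1.80 ± 0.16 SE (adjusted p = 1.72e-06). The kinesins and tubulins of the cytoskeleton leaned to the fall, in that 87 of 125 listed genes were tested, 8 rose and 32 fell (median log2 fold change -0.35).

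Of cytosolic ribosomal proteins 264 of 389 listed genes were tested, 11 rose and 109 fell (median log2 fold change -0.28), with a summed level of 30385, 32261 and 34799 CPM at mature green and 27569, 28592 and 20283 CPM at breaker, where breaker replicate 3 stood well below the other breaker libraries. Aminoacyl-tRNA synthetases held 30 risers and 8 fallers among 62 tested, an order that turned with no normalization factors.

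Genes known from other tissues were read to see what else the pericarp samples could hold. Of 208 seed genes (oleosins, storage and late embryogenesis proteins) 63 were tested, 14 rose and 21 fell, and 83 had no count in WT. Their sum went from 6110, 7799 and 9387 to 2899, 3131 and 2850 CPM, and without the Lea5-type gene Solyc09g075210 from 2433, 2528 and 3134 to 2023, 2316 and 2198 CPM. Oleosins, the defining proteins of seed oil bodies, had no count in 23 of 34 genes and summed to 41.2, 26 and 84.2 CPM at mature green and 84.6, 105 and 75.7 CPM at breaker. Xylem genes (23 of 65 tested) held 0 risers and 14 fallers and went from 570, 542 and 548 to 379, 397 and 403 CPM. Of these, 11 of the 14 fallers were fasciclin-like genes, which also belong to the arabinogalactan and fasciclin-like class above. They summed to 426, 411 and 394 CPM at mature green and 235, 262 and 268 CPM at breaker. The other xylem genes (10 of 39 tested, 0 rose and 3 fell) overlapped, at 144, 131 and 154 CPM at mature green and 145, 136 and 135 CPM at breaker. Phloem genes (11 of 23 tested, 2 rose and 1 fell, 2 and 3 with upper-quartile factors, 1 and 3 with none) overlapped, at 63.7, 76.3 and 62.7 CPM against 81.7, 70.3 and 64. The part of these tissues in the results was not tested.

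Whether the same passage differed in cr was tested gene by gene as the difference between the stage change in WT and that in cr. It passed for 2585 genes, 13.1% of those tested, the WT change being higher for 908 and lower for 1677. With no normalization factors these were 568 and 2100. It passed for 11 of 27 small heat shock genes, 9 of 22 CCT factors, 20 of 53 core histones, 13 of 35 polygalacturonases and pectate lyases, 12 of 33 lipid-transfer proteins and 9 of 26 arabinogalactan proteins. All 6 tested glycoalkaloid genes passed, each with the more negative change in WT. It passed for 7 of 264 cytosolic ribosomal proteins, 1 of 58 proteasome subunits, 0 of 14 TCP factors and none of the 8 ethylene synthesis genes or 15 receptor and signalling genes. A difference that missed the threshold does not show that the genotypes changed alike.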

How the data were processed

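RNA-seq counts of 12 libraries (WT and cr, mature green and breaker, 3 each) were used. The count table was deposited as whole-number gene counts, and the authors also deposited FPKM values per gene. Per the submitters' processing notes the tools named are HISAT2 2.0.5, fastp 0.23.1, featureCounts 1.5.0-p3, edgeR 3.22.5 and DESeq2 1.20.0. Whether strand was used in counting is not given. Gene positions and descriptions are those of the deposited table, on SL4.0.

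Counts were tested with edgeR 4.0.16 (R 4.3.3): filterByExpr (minimum count 10, total 15), TMM factors, a quasi-likelihood fit of 4 groups over 12 libraries (common biological coefficient of variation 0.155, prior degrees of freedom 4.96), the contrast WT breaker minus WT mature green, and Benjamini-Hochberg adjustment over 19664 genes, called at 0.05. The difference between the WT and the cr change was a contrast of the same fit. Intervals and floors cover counting error only, which the spread between WT replicates exceeded (chi-square per degree of freedom 9.85 to 24.9). Alternatives used limma 3.58.1 on FPKM and DESeq2 1.42.0; tables and figures used Python 3.11.15, pandas 2.3.3, scipy 1.17.1 and matplotlib 3.10.9. The fit was tested on simulated data in which far fewer genes changed than were called here, so that test does not cover the choice of scaling.

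The 66 description classes were made from the wording of the descriptions and corrected after these were seen; families came from domain names. The members and lists were chosen with earlier results of these data known. Of 120 gene IDs written down, 112 were kept, 7 were not analysed here and 1 had another description; 109 were tested. Genes named are those IDs, the 10 largest changes each way, up to 3 per class and direction with the most abundant member, the 10 of highest FPKM per stage, and runs of at least 4 neighbours of one class called the same way. Neighbours were taken among the tested genes, and the shared direction of a run is fixed by this rule. The largest changes and the genes per class and direction had to reach a mean of 3 log2 CPM in WT. They also needed WT groups without overlap and a call kept without each WT library. Some genes of these lists enter the counts but are not reported here. No sequence is printed.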

Additional observations from a re-analysis of the deposited data

Results flagged for a closer look

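Of the 109 ripening genes named by ID and tested, 28 (25.7%) changed between the stages by a different amount in WT and in cr in edgeR's quasi-likelihood test, against 13.1% of all tested genes. The ID list was written with earlier results known, so this share is a description. Values are the log2 change in WT minus that in cr.

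Among the regulators the difference was 0.38 for TAGL1 (0.61 in WT, 0.23 in cr; adjusted p = 0.0402), 0.76 for FUL1 (2.04 in WT, 1.29 in cr; adjusted p = 0.0255) and -2.77 for GLK2 (-4.71 in WT, -1.94 in cr; adjusted p = 0.00445). Among softening genes it was -1.44 for TBG6 (-0.66 in WT, 0.77 in cr; adjusted p = 0.00992), -1.13 for EXP1 (3.24 in WT, 4.37 in cr; adjusted p = 0.0345), 2.12 for CEL2 (5.14 in WT, 3.02 in cr; adjusted p = 0.0335) and -3.07 for MAN4a (4.59 in WT, 7.66 in cr; adjusted p = 0.0477). For isoprenoid precursors it was 0.53 for DXS1 (0.79 in WT, 0.26 in cr; adjusted p = 0.0488), 0.50 for HDR (0.74 in WT, 0.25 in cr; adjusted p = 0.0491) and -1.52 for GGPS2 (2.25 in WT, 3.77 in cr; adjusted p = 0.026).

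Along the pigments it was 0.81 for PDS (1.18 in WT, 0.37 in cr; adjusted p = 0.00158), 0.92 for ZDS (1.44 in WT, 0.53 in cr; adjusted p = 0.00156), 1.16 for CRTRB2 (1.76 in WT, 0.60 in cr; adjusted p = 0.00769) and 0.61 for VDE (0.65 in WT, 0.05 in cr; adjusted p = 0.0462), the WT rise being the larger in each, and -1.21 for NCED2 (-1.32 in WT, -0.11 in cr; adjusted p = 0.0132). It was 2.02 for BCAT1 (3.70 in WT, 1.68 in cr; adjusted p = 0.0171) among aroma genes.

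For sugar and starch it was -1.19 for LIN5 (-0.57 in WT, 0.62 in cr; adjusted p = 0.04), -0.86 for AGPS1 (-0.63 in WT, 0.23 in cr; adjusted p = 0.00673) and -0.67 for GBSS1 (-0.74 in WT, -0.07 in cr; adjusted p = 0.0462). For GABA synthesis it was -1.53 for GAD2 (-2.99 in WT, -1.46 in cr; adjusted p = 0.00683) and -1.56 for GAD3 (-1.19 in WT, 0.36 in cr; adjusted p = 0.0258). The cuticle gene gave -1.55 for CER6 (-0.05 in WT, 1.5 in cr; adjusted p = 0.0323).

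The 6 glycoalkaloid genes all differed the same way: -1.75 for GAME1 (-1.46 in WT, 0.29 in cr; adjusted p = 0.00789), -2.84 for GAME4 (-3.86 in WT, -1.03 in cr; adjusted p = 0.004) and -2.28 for GAME11 (-2.43 in WT, -0.15 in cr; adjusted p = 8.25e-05), with -2.43 for GAME12 (-4.09 in WT, -1.66 in cr; adjusted p = 0.000201), -2.35 for GAME6 (-2.24 in WT, 0.10 in cr; adjusted p = 0.00377) and -4.68 for GAME18 (-4.11 in WT, 0.57 in cr; adjusted p = 0.000659). LIN5 and CER6 were not called in WT itself.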

How the results depend on the processing

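The count of 9498 genes called between the stages stayed within 1.5 times under every alternative run: 9488 with RLE factors, 9345 with upper-quartile factors, 9630 with none, 9345 with no low-count filter, 8590 at a minimum count of 50, 8625 with the WT libraries alone, 9672 with DESeq2, 9454 with limma on log2(FPKM + 1) and 9503 on log2(FPKM + 0.1). With no factors 2846 genes were called higher, against 4600, and 568 against 908 for the difference between WT and cr. Leaving out each library in turn gave 8087 to 9844 calls, 3834 to 4796 of them higher and 4253 to 5048 lower. For the difference between WT and cr it gave 1828 to 2657 calls, 563 to 930 higher, with 603 without mature green replicate 2 of WT and 563 without mature green replicate 1 of cr, and 1265 to 1727 lower; DESeq2 gave 3210. Same-numbered WT libraries did not deviate together (r = 0.0587, -0.149 and -0.0588), so no sign of pairing was seen. With 3 libraries a group this cannot exclude a pairing, which the labels do not state. A fit with a replicate block called 8978 genes, 4281 higher and 4697 lower, and 2044 for the difference, 677 higher and 1367 lower. Of 88 classes and families, the order of risers and fallers turned in 11 with upper-quartile and 21 with no factors and in 0 with RLE. Of the 190 tested genes named in the report, 169 were called, and none reversed direction with a call. In at least 1 alternative or left-out library 9 lost the call (TCTP, ASR1, 2A11, MET1, GABA-T1, ACO1, TBG6, Solyc01g006650 and Solyc02g070970). Conversely, 12 named genes that were not called in the main fit were called in at least 1 of these settings. A gene given as not called is thus not always so under other processing. Genes named by the size of their change had been picked for keeping the call without each WT library. The small number of lost calls is thus partly fixed by that choice. Of all 9498 called genes, 7054 kept the call without each WT library. Of the 4 equal bins of abundance the lowest had 37.8% of its genes called and the highest 57%; the part of depth in this was not tested.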
